A study of Homo sapiens with 4 samples.

Results

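The receptors MET and MST1R (RON), the receptors AXL, TYRO3 and MERTK, and the 4 ligands HGF, MST1, GAS6 and PROS1 were examined by name in U87MG cells, a human malignant glioma line in long use. All 9 genes were found among the 19554 named genes of the table, MET under the lower-case name met and TYRO3 under its older name DTK. The 2 groups were a clone of this line carrying wild-type membrane alanyl-aminopeptidase (APN, also called CD13, the product of ANPEP) and another clone carrying its L243P form, which the labels describe as inactive. The construct names of both groups include EGFP. Each group had n = 2 samples from separate experiments, measured on Affymetrix Human Gene ST arrays, which read whole transcripts with many short probes per probe set. With 1 clone per genotype, effects of the genotype and of the clone cannot be told apart. In bulk samples, fewer cells with a transcript and less of it per cell cannot be told apart either.

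MET is the receptor tyrosine kinase for HGF (hepatocyte growth factor, or scatter factor), and RON is its close relative, bound by the macrophage-stimulating protein MSP, the product of MST1. Both ligands are secreted as inactive precursors that serine proteases cleave outside the cell, and the activated receptors promote scattering, growth and invasion. AXL, TYRO3 and MERTK form the TAM family, whose ligands GAS6 and protein S (PROS1) carry a vitamin K dependent domain that binds phosphatidylserine on membranes, so that the ligand bridges an exposed membrane and the receptor. In glioma, MET and AXL are known for their part in invasive growth. MERTK is known for the engulfment of dying cells by phagocytes.

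The normalized intensities of the 4 arrays had medians between 46 and 50. The log2 intensities of the 2 wild-type arrays correlated at 0.993 and those of the 2 L243P arrays at 0.995, and arrays of different groups correlated at 0.990 to 0.991. ANPEP was at 8447 and 9103 in the wild-type samples and at 6439 and 7122 in the L243P samples (adjusted p = 0.16, limma). Its probe set cannot separate the 2 forms from each other or from the endogenous transcript, so it does not check the genotype. Of the glioma markers, VIM was between 6134 and 8297 and CD44 between 1889 and 2240, whereas SOX2, OLIG2 and S100B stayed at or under 48 in every sample and GFAP was not among the named rows. NES (nestin) was the glioma marker whose groups did not overlap, at 62 and 74 in wild-type cells, against 104 and 112 in L243P cells (adjusted p = 0.12), and its part in the results was not tested. Markers of other cell types were mostly dim. The endothelial list summed to 219 and 248 in wild-type cells, against 213 to 234 in L243P cells over 7 measured genes. Of these 7, 3 had non-overlapping groups with L243P lower and 1 with L243P higher (20.9% and 17.1% of named genes), and 0 were called. KDR was at 37 and 33 in wild-type cells, against 21 and 25 in L243P cells, and TEK at 18 and 15 against 23 and 24. In the macrophage list, PTPRC (CD45) was between 8 and 9, while the lysosomal protein CD68 was at 1932 and 1871 in wild-type cells, against 2406 and 2569 in L243P cells (adjusted p = 0.11), and its part in the results was not tested. CD68 was not typical of this list. Its 8 genes had a median log2 change of -0.09, and 0 were called. AIF1 was lower without overlap, at 17 and 16 against 15 and 13 (adjusted p = 0.61, limma). The fibroblast and mural list summed to 1480 and 1530 in wild-type cells, against 1496 and 1537 in L243P cells. It held brighter rows that moved in opposite directions. COL1A2 was at 767 and 821 against 722 and 679, and COL1A1 at 210 and 209 against 275 and 285. Of its 7 measured genes, 2 had non-overlapping groups with L243P higher and 2 with L243P lower (17.1% and 20.9% of named genes). In this list 0 genes were called.

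Before the values, 3 promoters are shown because they belong to the member that changed (MET), its ligand (HGF) and a receptor with a bright probe set that did not pass the test (AXL). Each is the stretch of 250 bases upstream of the RefSeq gene start (GRCh38.p14), 5′ to 3′ on the gene's own strand, in lower case with GC boxes in capitals. A GC box, the core of the site of the transcription factor SP1, was searched as GGGCGG and its complement CCGCCC.
MET promoter, chr7:116671946-116672195, plus strand: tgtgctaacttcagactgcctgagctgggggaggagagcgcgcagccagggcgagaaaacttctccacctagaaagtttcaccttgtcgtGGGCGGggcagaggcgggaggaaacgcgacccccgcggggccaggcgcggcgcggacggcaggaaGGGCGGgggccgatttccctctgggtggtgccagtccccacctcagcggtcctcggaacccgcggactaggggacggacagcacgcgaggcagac
HGF promoter, chr7:81770048-81770297, minus strand: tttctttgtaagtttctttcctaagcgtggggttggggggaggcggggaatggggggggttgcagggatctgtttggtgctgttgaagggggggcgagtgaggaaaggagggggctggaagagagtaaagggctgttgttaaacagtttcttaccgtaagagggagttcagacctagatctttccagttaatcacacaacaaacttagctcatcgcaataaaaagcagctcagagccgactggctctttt
AXL promoter, chr19:41218973-41219222, plus strand: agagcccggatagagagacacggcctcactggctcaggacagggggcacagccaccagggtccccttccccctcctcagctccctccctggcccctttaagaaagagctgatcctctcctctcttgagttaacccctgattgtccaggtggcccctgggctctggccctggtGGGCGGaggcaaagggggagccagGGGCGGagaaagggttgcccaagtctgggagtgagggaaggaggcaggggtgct
The MET and AXL stretches each held 2 GC boxes, and the HGF stretch held 0. The share of G and C was 68.4% for MET and 64.4% for AXL, and it was lowest among the 9 members for HGF. GC boxes were in 41.7% of 24886 promoter stretches of the same length. The letters ACGTG or CACGT, a form of the hypoxia response element core, were in 18.7% of all stretches. They had 0 matches in all 9 members. The other form, GCGTG or CACGC, was not searched across all stretches, and it is present in the HGF and MET stretches shown. The AP-1 motif TGANTCA, in 6.67% of all, matched only in TYRO3, and the TEAD motif GGAATG (or CATTCC), in 12% of all, matched only in HGF. These are matches of letters and not mapped binding sites.

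The design asks which transcripts differ between the L243P and the wild-type clone. Of the 9 members, 1 passed the test, and it was lower in L243P: the receptor MET. Over all named genes, 0.967% passed in either direction and 0.537% passed as lower, by limma with an adjusted p of 0.05 or less. The other 8 members did not pass. Higher calls made up 0.43% of named genes, and no member was among them. In HGF, TYRO3, GAS6 and PROS1, 4 of these 8, the groups did not overlap and L243P was the higher one, a pattern shown by 17.1% of all named genes (38.0% had no overlap in either direction). The median log2 change over the 9 members was 0.18, against -0.02 over all named genes. That median is the value of MST1, whose probe set is uncertain, as described below. The other MST1 probe set showed no change, so the median depends on this choice.

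MET was at 1080 and 1130 in the wild-type samples and at 745 and 703 in the L243P samples. Both L243P samples were well below both wild-type samples, and the groups did not overlap (20.9% of named genes had this pattern in this direction). The mean fell from 1105 ± 35.4 (SD, n = 2) to 724 ± 29.7 (SD, n = 2), which is 1.53-fold lower, a log2 change of -0.61 with a 95% interval from -0.80 to -0.42 (SE 0.076, adjusted p = 0.042, limma). The transcript stayed bright in L243P, where its intensity was at the percentile 94.6 or above of each array, against 96.9 in both wild-type samples. Among the 8493 named genes with a mean intensity of at least 100, 138 (1.62%) had a change as low or lower. The call was narrow. It was lost with limma's default prior (adjusted p = 0.26) and when any 1 of the 4 arrays was left out (adjusted p between 0.22 and 0.31, with 0 genes called in each of these fits, so every call named here shares this limit), while the change itself stayed between -0.65 and -0.57 with each array left out.

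RON, the MET relative encoded by MST1R, was dim and uneven, at 40 and 26 in wild-type cells, against 31 and 35 in L243P cells. The L243P samples lay between the wild-type samples. The log2 change was 0.03 with a wide interval, from -0.52 to 0.58 (adjusted p = 1.0, limma). This was the widest interval of the 9 members.

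HGF, the ligand of MET, was at 111 and 116 in wild-type cells, against 135 and 126 in L243P cells. All L243P values were above all wild-type values, but the difference was small and did not pass (log2 change 0.20, 95% interval -0.06 to 0.46, adjusted p = 0.56, limma). The intensity of MET divided by that of HGF on the same array was 9.73 and 9.74 in wild-type cells, against 5.52 and 5.58 in L243P cells. Since the 2 probe sets differ in how they bind, only the change of this quotient has a meaning, and it was -0.81 on the log2 scale. The exact permutation test (two-sided, n = 2 against 2) gave p = 0.33, the smallest it can give with these group sizes. After adjustment over the 5 quotients computed, all chosen after the values were seen, it was 0.56.

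MST1, which encodes MSP, the ligand of RON, had 2 probe sets that did not show the same pattern. The brighter, which represents the gene here, was at 43 and 38 in wild-type cells, against 43 and 49 in L243P cells, a log2 change of 0.18 (95% interval -0.17 to 0.54, adjusted p = 0.74, limma). In the order of the table all 10 named genes around it lie on chromosome 1, where RefSeq places the MST1 copies MST1L and MST1P2. The dimmer probe set lies among 10 genes of chromosome 3, where RefSeq places MST1 itself, and it was at 23 and 22 in wild-type cells, against 23 and 22 in L243P cells (log2 change 0.00). The row for MST1L, listed under the older name MSTP9, was at 45 and 41 in wild-type cells, against 47 and 53 in L243P cells, close to the brighter MST1 probe set. The brighter MST1 values may therefore include signal from a copy, and the gene is reported as uncertain.

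**Figure D1:**
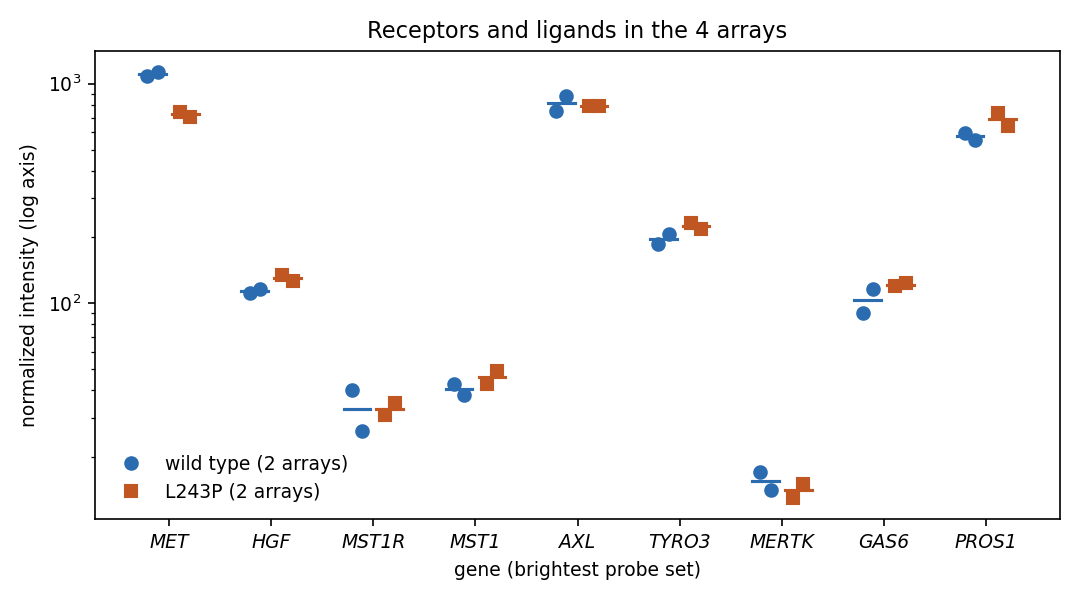
Normalized intensity (log axis) of the brightest probe set of each receptor and ligand in the 2 wild-type arrays (circles) and the 2 L243P arrays (squares), with lines at the group means. MET is at 1080 and 1130 in wild-type cells, against 745 and 703 in L243P cells, while AXL overlaps between the groups and HGF, TYRO3, GAS6 and PROS1 are slightly higher in L243P cells.

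AXL, the TAM receptor bound most tightly by GAS6, was bright in every sample, at 750 and 879 in wild-type cells, against 794 and 790 in L243P cells. The L243P samples lay inside the range of the wild-type samples. The log2 change was -0.04 with a 95% interval from -0.27 to 0.20 (adjusted p = 0.94, limma). The sign depended on the wild-type array kept: leaving out wild-type replicate 1 gave -0.15, and leaving out replicate 2 gave 0.08. It was also 0.04 after the shift of the neighbouring genes was subtracted. The quotient of MET over AXL was 1.44 and 1.29 with wild type and 0.938 and 0.890 in L243P cells, lower in both L243P samples (log2 change -0.57 of the quotient, exact permutation p = 0.33, adjusted p = 0.56 over the 5 quotients).

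TYRO3, a TAM receptor known mainly from the nervous system, was at 186 and 207 in wild-type cells, against 231 and 217 in L243P cells. The groups did not overlap, but the gap between the nearest samples was smaller than the distance between the wild-type samples. The log2 change was 0.19 (95% interval -0.06 to 0.44) and did not pass (adjusted p = 0.57, limma). MERTK, the TAM receptor of phagocytes, was at 17 and 14 in wild-type cells, against 13 and 15 in L243P cells. Its intensity lay between the percentiles 22.3 and 26.7 of the 4 arrays, and without detection calls its signal and background are not separated. Its log2 change was -0.14 (95% interval -0.54 to 0.25, adjusted p = 0.84, limma). It was -0.0037 when wild-type replicate 1 was left out and -0.28 when replicate 2 was.

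GAS6, a ligand of all 3 TAM receptors, was at 90 and 116 in wild-type cells, against 120 and 123 in L243P cells. The groups did not overlap, yet wild-type replicate 2 was close to the L243P samples and wild-type replicate 1 was alone below. The log2 change was 0.25 (95% interval -0.12 to 0.61, adjusted p = 0.62, limma). Leaving out wild-type replicate 1 gave 0.07, and leaving out replicate 2 gave 0.43. The 14 measured neighbours of GAS6 on chromosome 13 had a median change of 0.12, and 1 of them was below 0. With that shift subtracted, GAS6 was at 0.13. The quotient of AXL over GAS6 was 8.33 and 7.58 with wild type and 6.62 and 6.42 in L243P cells (log2 change -0.29, exact permutation p = 0.33). The remaining quotients, MST1R over MST1 (log2 change -0.15) and TYRO3 over PROS1 (-0.07), overlapped between the groups.

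PROS1 encodes protein S, the anticoagulant plasma protein that also binds TYRO3 and MERTK. Its brighter probe set was at 596 and 554 in wild-type cells, against 734 and 641 in L243P cells. The mean was 575 ± 29.7 (SD, n = 2) against 687.5 ± 65.8 (SD, n = 2), a log2 change of 0.26 (95% interval 0.02 to 0.49). This interval leaves out 0, but the change did not pass over all rows (adjusted p = 0.39, limma). The other PROS1 probe set had the same direction, at 235 and 313 in wild-type cells, against 375 and 359 in L243P cells (log2 change 0.44, adjusted p = 0.32). In neither probe set did the groups overlap. Both lie among chromosome 3 genes in the table, and PROS1 has a pseudogene copy, PROS2P, on the same chromosome, so shared signal cannot be told apart. Of the members, MET and PROS1 had an unadjusted p under 0.05, as 13.5% of all named genes did.

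**Figure D2:**
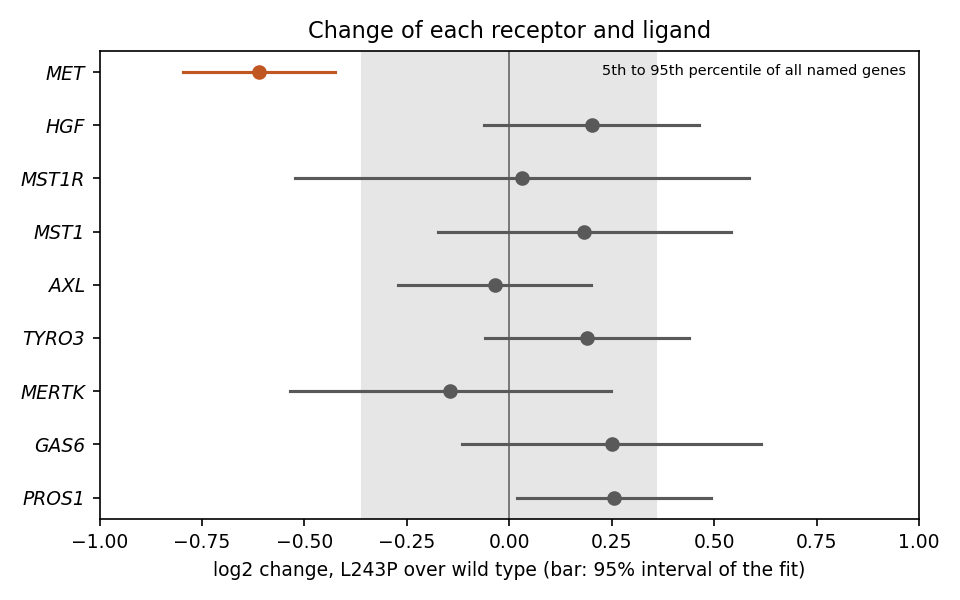
Change of each receptor and ligand, on the log2 scale (L243P over wild type), with the 95% interval of the limma fit (horizontal axis). The grey band spans the 5th to the 95th percentile of all named genes (-0.36 to 0.36). MET, the member that passed the test, lies outside the band at -0.61, while the other 8 members lie inside it.

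The 5 receptors were set beside the other receptor tyrosine kinases, the surface receptors that signal by phosphorylating tyrosines. Over 51 measured kinases of this class outside the MET and TAM families, 1 was called, and the median log2 change was -0.05. That was DDR2, a collagen receptor, which rose from 561.5 ± 10.6 to 999.5 ± 40.3 (SD, n = 2 each), a log2 change of 0.83 (adjusted p = 0.017, limma). The 20 neighbours of DDR2 on chromosome 1 had a median change of 0.32, and with that subtracted the DDR2 change was 0.51 and missed the threshold (adjusted p = 0.075). The 5 brightest of these other kinases also held FGFR1, at 432 and 464 in wild-type cells, against 317 and 331 in L243P cells (log2 change -0.47, adjusted p = 0.096), and EGFR, at 270 and 260 in wild-type cells, against 195 and 194 in L243P cells (log2 change -0.45, adjusted p = 0.11). In both, all L243P values were lower, but neither passed. The 20 chromosomal neighbours of FGFR1 and of EGFR had median changes of -0.11 and -0.12, which are not subtracted here. RYK (0.05) and ROS1 (-0.05), the remaining bright ones, overlapped between the groups. Among all 56 kinases MET had the second lowest change, after the dim EPHA7 at -0.74, which was not called (adjusted p = 0.14). The dim KDR, at -0.609, was next to MET at -0.610 and was not called (adjusted p = 0.20, limma). In 15 of the 56 the groups did not overlap with L243P lower, and in 8 with L243P higher (20.9% and 17.1% of named genes).

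**Figure D3:**
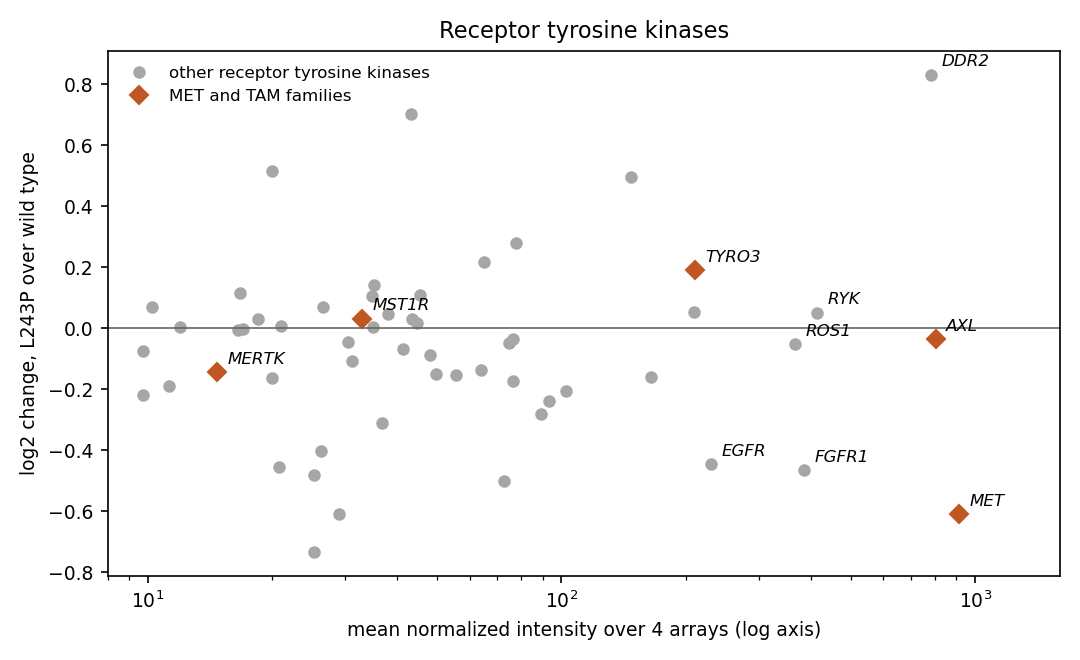
Log2 change of 56 receptor tyrosine kinases (vertical axis) against their mean normalized intensity over the 4 arrays (log axis), with the MET and TAM families as diamonds. MET (-0.61) and DDR2 (0.83) were called, and AXL lies near 0 at a similar brightness. Brightness of different probe sets does not rank transcript amounts.

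Genes that act with the receptors were described from lists of known partners. Of 12 genes for the proteases that activate HGF and MSP and for their inhibitors, 0 were called (median -0.05). The lowest was PLAU, the urokinase that can cleave pro-HGF, at 877 and 821 in wild-type cells, against 566 and 605 in L243P cells (log2 change -0.54, adjusted p = 0.062). The groups did not overlap, and the test was missed. KLKB1 (plasma kallikrein) was near the lowest intensities at 10 and 10 against 7 and 9, and the membrane protease ST14 (matriptase) was at 33 and 32 against 39 and 36. Neither passed.

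Of 11 measured co-receptors and sheddases, 0 were called (median -0.11). PLXNB2, a plexin of the family that pairs with MET, was at 431 and 474 in wild-type cells, against 304 and 303 in L243P cells (log2 change -0.57, adjusted p = 0.063). The laminin receptor subunit ITGA6 was dim, at 17 and 21 against 13 and 12, and the heparan sulphate proteoglycan SDC1 was slightly brighter in L243P, at 497 and 462 against 585 and 534. PLXNB2 was the clearest of the 3, and none passed.

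Among 24 adaptors and effectors of MET, 0 were called (median 0.03). The adaptor SHC1 was at 570 and 583 in wild-type cells, against 725 and 728 in L243P cells (log2 change 0.33, adjusted p = 0.14). The kinases MAP2K1 (MEK1) and PTK2 (focal adhesion kinase) were lower, at 610 and 718 against 522 and 497 and at 434 and 418 against 359 and 318 (adjusted p = 0.22 and 0.24).

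Of 16 negative regulators of MET, 1 was called, as lower (median -0.06). In 8 of these the groups did not overlap with L243P lower, and in 4 with L243P higher (20.9% and 17.1% of named genes). DCN encodes decorin, a secreted proteoglycan that binds MET among other receptors, and it fell from 38 ± 2.83 to 12.5 ± 0.707 (SD, n = 2 each, log2 change -1.60, adjusted p = 0.015, limma). It is a dim row in both groups. With the neighbour shift subtracted, DCN was at -1.49 (adjusted p = 0.022, limma). The feedback inhibitors SPRY4 and DUSP6 differed in sign, at 101 and 85 against 61 and 70 and at 467 and 381 against 533 and 562, and neither passed (adjusted p = 0.25 and 0.28).

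Transcription factors reported upstream of MET or AXL had 0 calls among 19 (median -0.01). HIF1A, the oxygen-regulated subunit, was at 1721 and 1916 in wild-type cells, against 2705 and 2711 in L243P cells (log2 change 0.58, adjusted p = 0.051), so it missed the threshold narrowly. ETS1 was at 227 and 284 against 161 and 171 (log2 change -0.61, adjusted p = 0.14), and WWTR1 (TAZ), a partner of TEAD factors, was at 229 and 240 against 169 and 168 (log2 change -0.48, adjusted p = 0.11). Both had non-overlapping groups in L243P cells below.

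On the side of the TAM receptors, 0 of 7 genes for vitamin K dependent carboxylation were called (median 0.01). Among them were VKORC1L1, a vitamin K reductase, and NQO1 (adjusted p = 0.65 and 0.41). Of 14 genes for phosphatidylserine exposure and for other bridging proteins, 0 were called, and the scramblase ANO6 was at 333 and 380 against 413 and 388. ATP11A, a flippase, and TUB were also among the 3 with the smallest p and did not pass (adjusted p = 0.42 and 0.58). Of 16 TAM effectors and feedback genes, 0 were called (median 0.07). In 8 of these the groups did not overlap with L243P higher, and in 2 with L243P lower (17.1% and 20.9% of named genes). The 8 included VAV3, an exchange factor for small GTPases, at 65 and 85 against 129 and 112 (log2 change 0.69, adjusted p = 0.18), and the tensin TNS2 at 110 and 117 against 145 and 139 (adjusted p = 0.31).

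**Figure D4:**
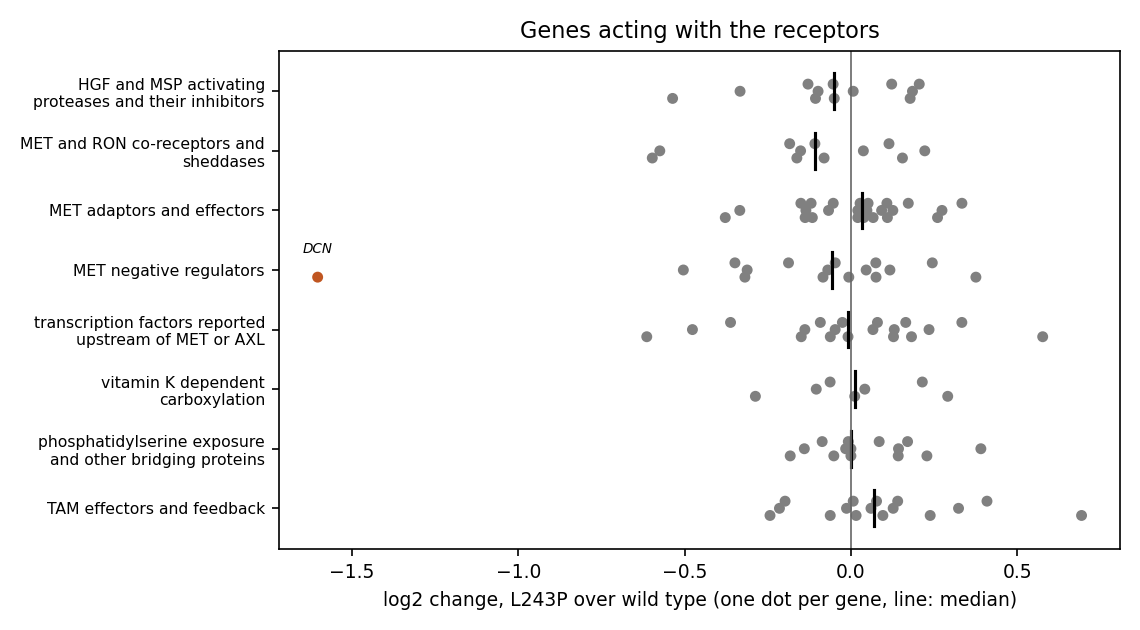
Log2 change, L243P over wild type, of the measured genes in 8 lists of genes acting with the receptors (one dot per gene, black line at the median of a list), with called genes named. DCN at -1.60 is the single called gene, and the medians lie between -0.11 and 0.07.

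Since each genotype is a single clone, the neighbours of each member on its chromosome were set beside it. The 20 measured neighbours of MET on chromosome 7 had a median change of -0.02, and 10 of them were below 0. They ranged from -0.75 to 0.47, and this pooled median does not describe each side of MET. At higher coordinates, the 20 neighbours of CFTR and of LSM8 had median changes of -0.17 and -0.20. At lower coordinates, those of GPR85 had a median change of 0.0006. Nearest to MET, CAV1 (caveolin 1) was at 1438 and 1720 in wild-type cells, against 1206 and 1255 in L243P cells (log2 change -0.35, adjusted p = 0.25), and CAPZA2 was at 720 and 844 against 786 and 717 (log2 change -0.05, adjusted p = 0.91). Of the 20, TES (testin, a focal adhesion protein) fell, from 209 ± 5.66 to 124.5 ± 6.36 (SD, n = 2 each, log2 change -0.75, adjusted p = 0.046, limma), and the other 19 were not called. With the neighbour shift subtracted, the MET change was -0.59 and missed the threshold (adjusted p = 0.055). TES, too, then missed it, at -0.77 (adjusted p = 0.055). For the other 8 members the neighbour medians lay between -0.07 and 0.12. Copy number was not measured, and its part in these values was not tested.

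**Figure D5:**
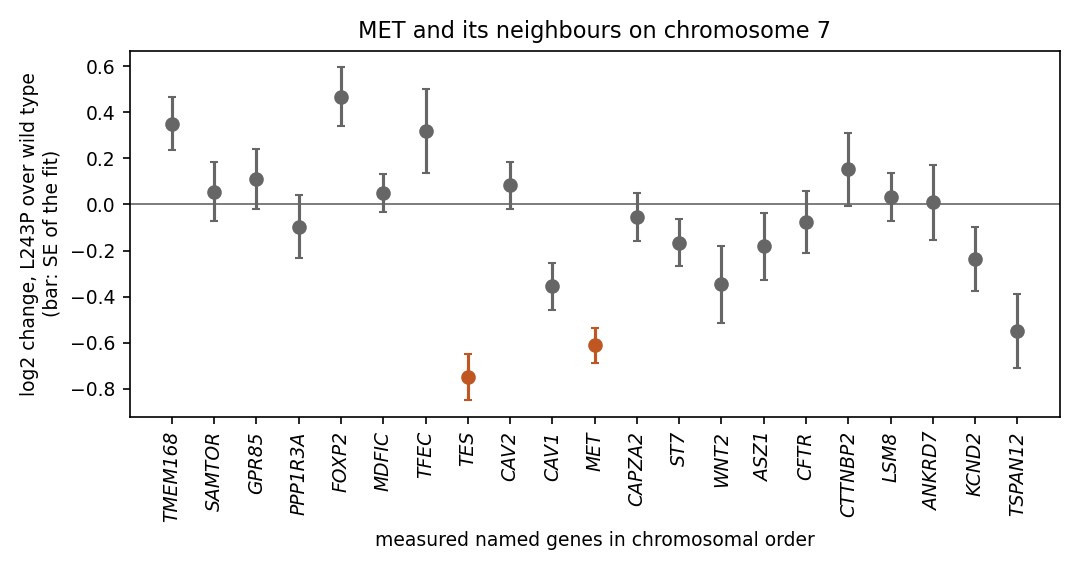
Log2 change, L243P over wild type, of MET and the 10 measured named genes on each side of it, in chromosomal order, with bars for the SE of the limma fit. MET and TES are the called genes, at -0.61 and -0.75, while CAV2, between TES and MET, is at 0.08.

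Over the 4 arrays, the genes nearest to MET were found by the Euclidean distance of log2 intensities centred on each gene's mean, among 8492 other named genes with a mean intensity of at least 100. They were PPARGC1A (distance 0.055), PDK1 (0.055), SAT1 (0.058), RELL1 (0.063) and VGF (0.072). SAT1, a polyamine acetyltransferase, fell from 520 ± 29.7 to 330.5 ± 10.6, and VGF, a secreted neuropeptide precursor, fell from 672 ± 29.7 to 419.5 ± 14.8 (SD, n = 2 each). The transcriptional coactivator PPARGC1A, the pyruvate dehydrogenase kinase PDK1 and the membrane protein RELL1 did not pass (adjusted p = 0.097, 0.072 and 0.054, limma). PPARGC1A and RELL1 lie on chromosome 4 among neighbours with median changes of -0.54 and -0.46, close to their own changes of -0.65 and -0.61. With the neighbour shift subtracted, SAT1 (-0.67, adjusted p = 0.055) and VGF (-0.57, adjusted p = 0.062) missed the threshold. The measure rests on n = 4 arrays in 2 groups, so genes with a like group difference are near by construction.

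In the authors' deposited table, MET has a fold of -1.5, a ratio-based p-value of 0.00168, an analysis of variance p-value of 0.141 and a rank product pfp (proportion of false positives) of 0.338 for the lower direction. The authors' deposited summary of selected genes, made at a pfp of 0.15 or lower, lists 224 genes, and 0 of the 9 members are among them. In the authors' deposited table, the other members have folds between -1.1 and 1.3, the last for the dimmer PROS1 probe set, whose pfp for the higher direction is 0.574.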

How the data were processed

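RNA of 4 U87MG samples was measured on Affymetrix Human Gene ST arrays. The authors deposited linear intensities rounded to whole numbers for 29085 probe sets, RMA background corrected, quantile normalized and summarised in Rosetta Resolver, per the deposited description. Software version and genome build: not given in the sources used here. In addition, the authors' deposited table holds signed fold ratios, rank scores with pfp values, and p-values.

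The brightest probe set stood for each gene with several. Of 19554 genes, 18161 matched RefSeq names, older symbols included, and 7978 probe sets had no usable name. Over 27532 rows, log2 intensities were compared by limma 3.58.1 (R 4.3.3) with a robust prior that follows intensity, no filter, and Benjamini-Hochberg adjustment at 0.05. This prior was taken from an earlier analysis of these data, with its calls known; 836 rows of the rounded values had no spread in both groups. The fit was tested on simulated arrays. The planted changes were larger than that of MET, so the simulation does not show how often a change of that size is called. P-values reflect the variation between experiments with 1 clone each.

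The members, lists and fit were chosen with earlier results of these data known. Named were all members, ANPEP, the called genes or 3 smallest p of each list, the 5 brightest other receptor kinases, the nearest neighbours of MET, its 5 nearest patterns and cell type markers; some genes that this rule names are not reported here. TES, CAV2, EPHA7, MST1L, the motifs and the quotients were chosen after their values were seen. Same-numbered samples are not said to share an experiment, and their deviations correlated at -0.16. Alternatives were the default prior, a replicate block, median centring, a filter on dim rows, the mean over probe sets, a pseudocount of 16, the series' value table (identical values), subtraction of the median change of 10 neighbours on each side, and leaving out each array.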

Additional observations from a re-analysis of the deposited data

How the results depend on the processing

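The number of named genes called was 189 (84 higher and 105 lower in L243P). By limma it was 0 with the default prior (2785 genes at an unadjusted p under 0.05), 0 with the replicate block (1637) and between 0 and 0 with an array left out (2308 to 3487). It was 504 with median centring (281 higher and 223 lower), 440 without the rows dimmer than the median (257 and 183) and 97 with the neighbour shift subtracted (44 and 53). The number of members called was 1 and became 0 with the default prior, the replicate block and the neighbour shift subtracted, and between 0 and 0 with an array left out. With the block, the adjusted p of MET was 0.65, the smallest value of any gene, and PROS1 had the same value, so MET was not alone at it. With the replicate numbers crossed between the groups, chosen after seeing the data, the block gave 0 called genes (2537 at an unadjusted p under 0.05) and 0 called members. MET kept its direction in all 13 settings (between -0.65 and -0.57) and its call in 5, with the adjusted p between 0.012 and 0.65. Some of these settings could not alter its change, which stayed at -0.61 by construction. Those were the default prior, both blocks, the filter on dim rows, the mean over probe sets and the series' value table. Since MET has 1 probe set and the series' values are identical, the calls kept with the mean and with that table add no support. Changes of sign were limited to AXL (0.039 with the neighbour shift subtracted, and between -0.15 and 0.079 with an array left out) and MST1R (between -0.28 and 0.34 with an array left out). Without the rows dimmer than the median MST1R, MST1 and MERTK had no value. The causes of these differences were not tested. Dim rows such as MERTK and MST1R had no detection calls to set against.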
